A study of Homo sapiens with 16 samples.

Results

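The genes described here encode the proteins of the human cytosolic ribosome. A gene was taken as a member when its protein-coding symbol was RPL or RPS followed by a number, with or without a closing A, X or L, or was RPLP0, RPLP1, RPLP2 or RPSA. RPS27L was left out and is described as a paralog. Of 58051 gene identifiers in the table, 80 met the rule, 49 for the large and 31 for the small subunit. The rule used no measured value. RNA came from P493-6, an immortalised human B cell line with a MYC transgene that doxycycline represses and an Epstein-Barr virus EBNA2 protein that is active only with oestrogen. The study asked how N-myristoyltransferase (NMT) inhibition acts at different MYC levels. High MYC cells had no additive. Medium MYC cells had 0.1 µg/mL doxycycline and 1 µM β-estradiol from 24 h before treatment, so MYC level, doxycycline and estradiol cannot be told apart. Cells then received 100 nM IMP1088, an NMT inhibitor, or DMSO, for 24 h. The 4 groups were high MYC with DMSO, high MYC with IMP1088, medium MYC with DMSO and medium MYC with IMP1088, each with 4 libraries. All come from 1 cell line, and the labels do not say whether replicates were separate cultures, so p-values measure only the spread between these libraries.

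The large subunit joins amino acids in the peptidyl transferase centre and passes the chain through an exit tunnel, and the small subunit reads the mRNA. One copy of nearly every ribosomal protein is needed per ribosome, and MYC is known to raise transcription of their genes. Most of these mRNAs begin with a 5′ terminal oligopyrimidine (TOP) tract, a C followed by a run of C and T, through which mTOR and LARP1 control their translation.

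The starts of 8 members are shown because these genes had the largest or smallest changes described below, together with RPLP0, whose profile was the most like the median member's. Each is 15 bases before to 15 bases from the RefSeq transcript start (GRCh38.p14), 5′ to 3′ on the gene's strand. Capitals mark a TOP start, defined as a C at the first transcribed base followed by at least 4 pyrimidines without a break.
RPL14 at chr3:40457324-40457353, plus strand: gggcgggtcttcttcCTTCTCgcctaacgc
RPS12 at chr6:132814554-132814583, plus strand: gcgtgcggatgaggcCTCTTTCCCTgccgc
RPL3 at chr22:39319609-39319638, minus strand: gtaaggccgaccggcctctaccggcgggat
RPL17 at chr18:49492451-49492480, minus strand: cctctttccctaagcagcctgaggtgagtg
RPS27 at chr1:153990747-153990776, plus strand: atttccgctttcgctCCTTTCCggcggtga
RPS19 at chr19:41860240-41860269, plus strand: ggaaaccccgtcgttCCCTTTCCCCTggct
RPL39 at chrX:119791616-119791645, minus strand: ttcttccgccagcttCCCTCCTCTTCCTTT
RPS29 at chr14:49598696-49598725, minus strand: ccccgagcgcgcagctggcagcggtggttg
RPLP0 at chr12:120201097-120201126, minus strand: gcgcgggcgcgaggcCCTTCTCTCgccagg
A TOP start was thus present both in RPL14 and RPS12, among the members that fell furthest, and in RPS27, RPS19 and RPL39, among those that fell least. RefSeq windows matched 63 of the 80 members, with 78 windows in all because some genes have several starts. A TOP start was found in 46 windows, one for each of 46 members (59.0% of the member windows, against 4.07% of all 35116 windows). The window for RPL3 begins with a short pyrimidine run that an A interrupts, so it missed the criterion. In RPL17 a pyrimidine run lies shortly before the RefSeq start, and in RPL10A shortly after it. Missing the criterion therefore does not show that a gene lacks a TOP tract.

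Other motifs were searched on both strands from 250 bases before to 50 bases after each start. The E-box CACGTG, the core to which MYC and MAX bind, was in 5.13% of member windows and 7.26% of all windows. It was found in RPL13A, RPL19, RPS19 and RPS28. CCGGAA, the core of ETS-family sites, was in 52.6% of member windows and 17.2% of all windows, and it can overlap a pyrimidine run on the other strand. TATAAA, the TATA box, was in 7.69% and 11.5%. The 46 members with a TOP start had a median log2 change of −0.81 between medium and high MYC, and the 16 tested members with a window but no TOP start had −0.87.

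The table held 8755296 to 13858534 reads per library. B cell markers were abundant in every library, with MS4A1 at 9101 to 23087 and CD79A at 2527 to 3266 normalized counts. The T cell markers CD3D and CD2 stayed at or below 5.14 and the myeloid marker CD14 at or below 10.4 normalized counts. The summed level of 5 B cell markers (MS4A1, CD79A, CD79B, PAX5 and CD22) was 23284 to 23454 at high MYC and 37963 to 38720 at medium MYC in DMSO. With IMP1088 it was 18874 to 19840 and 33532 to 34737. These markers did not move together: at medium MYC in DMSO MS4A1, CD22 and PAX5 rose by 0.96, 1.28 and 0.38 log2, whereas CD79A and CD79B fell by 0.12 and 0.11 (limma adjusted p = 0.0101 and 0.0174) with overlapping groups, and the call of CD79B was lost in 2 of the fits without 1 library (replicate 2 of high MYC or replicate 4 of medium MYC). The 4 T cell markers, of which CD3E and CD3G gave nearly all the signal, summed to 62.9–71.5 and 68.8–95.4 in DMSO and to 44.1–57.7 and 43.1–54.3 with IMP1088. The 4 myeloid markers, with ITGAM the highest, summed to 118–136 and 263–291 in DMSO and to 108–119 and 247–276 with IMP1088. In DMSO ITGAM rose by 1.49 log2 (SE 0.10) at medium MYC and LYZ changed by 0.06 (SE 0.13, limma adjusted p = 0.679), while CD14 and CSF1R had at most 10 and 11 reads in any library. The part of these marker changes in the results was not tested. In these bulk samples, fewer cells of a type and less RNA per cell cannot be told apart. MYC, the gene the design sets, averaged 31649 ± 2130 (SD, n = 4) normalized counts at high and 959 ± 48.7 (SD, n = 4) at medium MYC in DMSO, a log2 change of −5.04. With IMP1088 MYC was higher by 0.59 log2 at high and 0.53 at medium MYC (limma adjusted p = 7.24e-10 and 2.74e-09), and its part in the results on IMP1088 was not tested.

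Of the 80 members, 78 had a mean of at least 10 normalized counts over the 16 libraries and were tested. The untested members were RPL10L and RPL3L, paralogs of RPL10 and RPL3 known from testis and from heart and skeletal muscle. RPL10L had 0 reads in all 16 libraries, where a count of 0 allows up to 3 reads in each. RPL3L had 0 to 2 reads at high MYC in DMSO, 0 to 4 at high MYC with IMP1088, 2 to 4 at medium MYC in DMSO and 1 to 4 at medium MYC with IMP1088.

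Ribosomal protein genes took a smaller share of all reads in the table at medium than at high MYC, and a larger share with IMP1088 than with DMSO. The table also counts abundant RNAs that are not mRNAs, such as RN7SL1. At high MYC in DMSO, replicates 1 to 4 gave 7.28, 7.27, 7.18 and 7.17% of reads to the members (7.22% ± 0.0575, SD, n = 4). With IMP1088 they gave 7.83, 7.80, 7.98 and 7.81% (7.85% ± 0.0843, SD, n = 4). No library of one group reached the range of the other.
At medium MYC in DMSO the share was 4.03, 4.13, 4.21 and 4.18% (4.14% ± 0.0770, SD, n = 4), and with IMP1088 it was 4.72, 4.84, 4.84 and 4.78% (4.80% ± 0.0549, SD, n = 4). These groups did not overlap either, and each medium MYC library was below every high MYC library. The 10 genes with the most reads summed over the 16 libraries included no member. They held 10.2% ± 0.673 and 10.5% ± 0.557 of reads at high MYC and 13.2% ± 0.771 and 13.2% ± 0.348 at medium MYC (SD, n = 4 each). With those genes left out, the 4 shares were 8.04, 8.78, 4.77 and 5.53%.
The large subunit genes took 1.56 ± 0.00995 times the reads of the small subunit genes at high MYC in DMSO and 1.55 ± 0.00580 times with IMP1088. At medium MYC the ratio was 1.51 ± 0.0112 in DMSO and 1.5 ± 0.00755 with IMP1088 (SD, n = 4). The ratio ranged from 1.55 to 1.58 over the high MYC libraries and from 1.49 to 1.52 over the medium MYC libraries, so the MYC levels did not overlap, whereas DMSO and IMP1088 overlapped at each level.

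**Figure D1:**
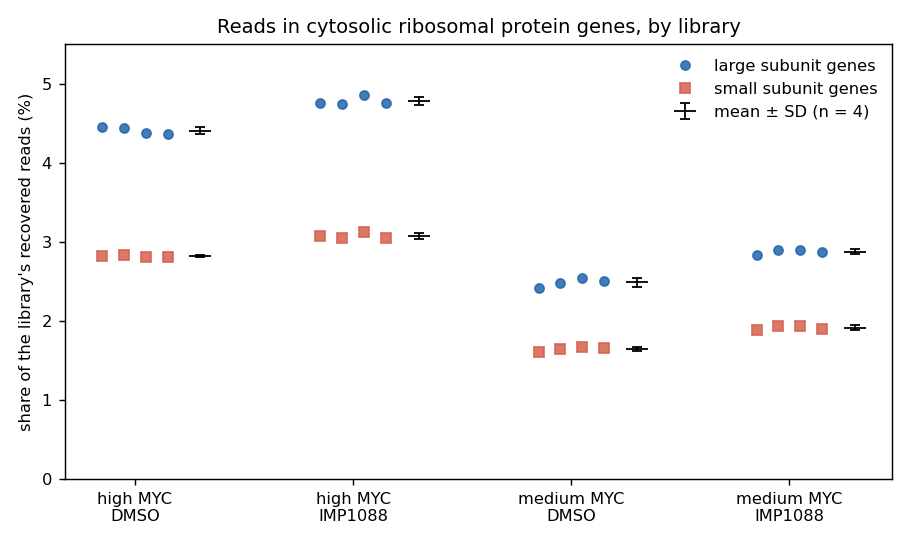
Share of each library's reads (%, y axis) in large subunit genes (circles) and small subunit genes (squares) in the 4 groups, with the mean and SD of 4 libraries. Both subunits were lower at medium MYC, and both were higher with IMP1088: the large subunit share averaged 4.41, 4.78, 2.49 and 2.88% from left to right.

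Almost all members had lower normalized counts at medium than at high MYC. These counts are relative to the other genes of a library and do not measure mRNA per cell. In DMSO, 77 of the 78 tested members fell and 1, RPL39L, rose (limma, adjusted p below 0.05). Over all 13765 tested genes 37.3% were called lower and 38.9% higher. Among genes that averaged at least 1000 normalized counts, 48.1% were called lower. The median member changed by −0.82 log2, or to 0.568 of its level, against 0.02 for all genes. All 31 small subunit members fell, with a median of −0.83, and 46 of 47 tested large subunit members fell, with a median of −0.81. The 77 members were also those whose medium MYC libraries all lay below the high MYC libraries (33.6% of all genes, and 35.4% in IMP1088). In the IMP1088 libraries, which share no sample with the DMSO libraries, 77 members again fell and RPL39L rose (37.8% of all genes were called lower and 39.7% higher), with a median of −0.71.

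The change was not the same for every member. RPL14, a protein of the large subunit surface, fell furthest in DMSO. Its normalized counts were 7552, 7583, 7666 and 7584 at high MYC and 2907, 3020, 2906 and 3063 at medium MYC. Each medium library thus held less than the lowest high MYC library by a wide margin, and the log2 change was −1.35 (SE 0.03, limma adjusted p = 5.22e-21). RPL17, near the mouth of the exit tunnel, had 10302, 9821, 9886 and 9546 at high MYC and 3846, 3984, 4121 and 4029 at medium MYC, a log2 change of −1.31 (SE 0.03). The read-through gene RPL17-C18orf32, which overlaps RPL17, averaged 74.9 and 79.7 in these groups, and RPL17 also overlaps a gene on the other strand. RPL5, which with RPL11 and 5S rRNA forms a particle that can also bind MDM2, had 13608, 13569, 13703 and 13367 at high and 5984, 5988, 5822 and 5956 at medium MYC, a log2 change of −1.19 (SE 0.02). Its partner RPL11 fell by 0.80 (SE 0.04). RPS12, of the small subunit head, had 2518, 2664, 2623 and 2618 against 1165, 1199, 1177 and 1246, a log2 change of −1.12 (SE 0.03) and the furthest fall of any small subunit member. RPL3, which reaches toward the peptidyl transferase centre, fell from 22235, 22449, 22447 and 22296 to 10288, 10536, 10663 and 10975, by 1.07 log2 (SE 0.02). In all, 7 members fell at least 2-fold in DMSO, 6 of them of the large subunit.

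At the other end stood RPS27, a zinc-binding protein of the small subunit, and RPS19, the gene most often mutated in Diamond-Blackfan anaemia. RPS27 had 5567, 5567, 5131 and 5260 normalized counts at high and 4572, 4709, 5046 and 4878 at medium MYC in DMSO. The groups came close without overlapping, and RPS27 fell by 0.16 log2 (SE 0.03, limma adjusted p = 1.03e-04). In the IMP1088 libraries RPS27 changed by −0.07 (SE 0.03, adjusted p = 0.0413), and this call was lost under 10 other settings, among them the fit without the mean trend and several fits without 1 library. RPS19 had 8762, 8929, 8336 and 8543 at high and 7033, 7216, 7666 and 7394 at medium MYC, a log2 change of −0.24 (SE 0.03). Its change in the IMP1088 libraries was −0.16 (SE 0.03, adjusted p = 6.26e-05), but 0.10 with quantile normalization (adjusted p = 9.76e-04), so its direction there rests on the scaling. RPL39, a small protein in the wall of the exit tunnel, had 5085, 5064, 5419 and 5039 at high and 3762, 3905, 3882 and 4033 at medium MYC and fell by 0.40 (SE 0.03), the smallest fall of the large subunit.

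Proteins with known special roles lay between these ends. The stalk protein RPLP0 fell by 0.98 (SE 0.04), whereas RPLP1 and RPLP2, which bind to it as dimers, fell by 0.57 (SE 0.04) and 0.52 (SE 0.05). RPS6, the substrate of S6 kinase, fell by 0.96 (SE 0.03), RPS4X by 0.80 (SE 0.03), RPL10, which joins the large subunit late, by 0.71 (SE 0.02), and RPSA by 0.64 (SE 0.03). RPL22, which binds the viral RNA EBER1, fell by 0.90 (SE 0.03), RPL26 by 0.98 (SE 0.02), RPL7 by 1.02 (SE 0.03) and RPL36A by 0.81 (SE 0.03). Leaving out RPL39L, the log2 changes of 77 members in the DMSO libraries and in the IMP1088 libraries were related by Pearson r = 0.988 and Spearman rho = 0.984 across genes, which are not independent replicates. The 28 members with a snoRNA gene inside them had a median change of −0.85 in DMSO and the 50 tested without one −0.80.

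RPL39L, a paralog of RPL39 known from testis, was the only member that rose. It had 27.9, 22.5, 24.3 and 22.4 normalized counts at high and 51.1, 61.6, 67.4 and 62.4 at medium MYC in DMSO, and it rose by 1.29 log2 (SE 0.19, limma adjusted p = 2.15e-06). The groups did not overlap, nor did they with IMP1088, where it had 19.4, 22.2, 14.0 and 21.8 at high and 50.1, 36.8, 43.9 and 66.6 at medium MYC, a log2 change of 1.29 (SE 0.19). These values rest on 16 to 77 reads per library. Per kilobase of annotated transcript RPL39L averaged 32.1 and 80.2 at high and medium MYC in DMSO, where RPL39 averaged 12847 and 9714, so RPL39 remained far above it in both groups.

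Paralogs outside the rule did not all follow their partners. RPL22L1, which can replace RPL22, had 1611, 1645, 1647 and 1587 normalized counts at high and 703, 669, 651 and 721 at medium MYC in DMSO and fell by 1.24 (SE 0.04, limma adjusted p = 1.70e-17), in the same direction as RPL22. RPL26L1 fell by 0.51 (SE 0.06), RPL7L1, a nucleolar protein of large subunit assembly, by 0.92 (SE 0.04), and RPL36AL by 0.21 (SE 0.05). RPS27L, which p53 is known to induce, had 569, 538, 555 and 523 at high and 692, 734, 649 and 771 at medium MYC. It rose by 0.38 (SE 0.05, limma adjusted p = 5.71e-07) in DMSO and by 0.46 (SE 0.05) with IMP1088, whereas RPS27 changed by −0.16 and −0.07. Ribosomal proteins with other symbols fell too: RACK1 of the small subunit head by 0.81 (SE 0.03) and FAU, made as a fusion with a ubiquitin-like protein, by 0.49 (SE 0.04).

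**Figure D2:**
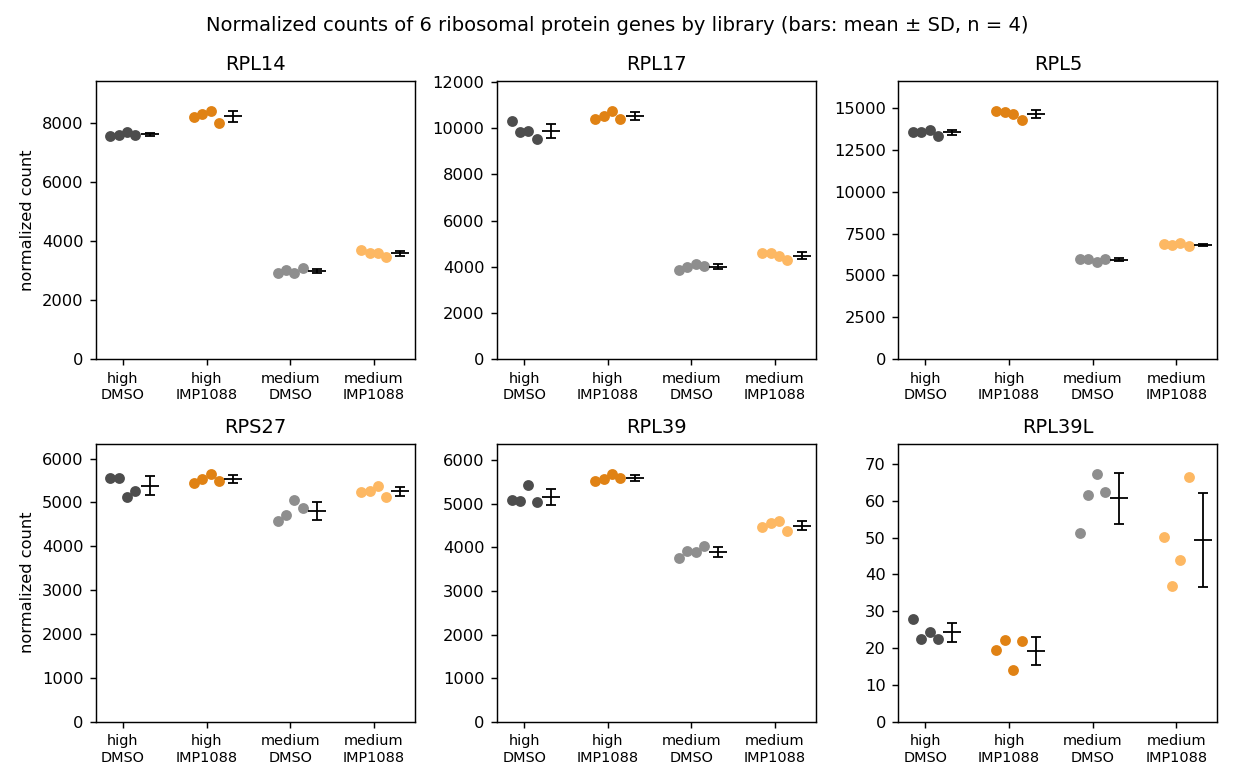
Normalized counts (y axis, from 0) of 6 members in each library of the 4 groups, with the mean and SD of 4 libraries beside the points. RPL14, RPL17 and RPL5 were clearly lower at medium MYC, RPS27 and RPL39 less so, and RPL39L, at 14.0 to 67.4, was higher.

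IMP1088 was followed by slightly higher levels of many members and by a fall of none that passed the test. At high MYC 48 of 78 members rose (limma, adjusted p below 0.05), against 10.5% of all tested genes called higher and 14.8% of genes averaging at least 1000. None fell by limma, edgeR or DESeq2, and 0 fell at an unadjusted limma p below 0.05, against 16.3% of all genes called lower. The median change of the members was 0.10 log2, or 1.07-fold, and that of all genes −0.02. Of the small subunit 22 of 31 rose and of the large subunit 26 of 47. The count ran from 33 without the mean trend to 63 with equal library totals. Over all genes 1442 were called higher and 2247 lower, and 1727 and 1770 with quantile normalization.
The rise was small for each member. RPS29, a zinc-binding protein of the small subunit head, had 2894, 3303, 3469 and 3484 normalized counts with DMSO and 3590, 3805, 3793 and 3896 with IMP1088. The groups did not overlap although DMSO replicate 1 was low, and the log2 change was 0.20 (SE 0.06, adjusted p = 0.0109). RPL3 had 22235, 22449, 22447 and 22296 against 25306, 24865, 25382 and 24896, and rose by 0.17 (SE 0.02, adjusted p = 1.08e-05) with its groups well apart. RPS14 rose by 0.16 (SE 0.03) and RPL35A by 0.15 (SE 0.03).

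At medium MYC 70 of 78 members rose with IMP1088, against 11.7% of all tested genes and 20.4% of genes averaging at least 1000. As at high MYC, 0 fell by any of these tools or at an unadjusted p below 0.05, against 14.6% of all genes called lower. The median change was 0.18 log2, or 1.14-fold, and −0.01 for all genes. The count was 29 of 31 for the small subunit and 41 of 47 for the large. In 68 members every IMP1088 library lay above every DMSO library (12.4% of all genes), and at high MYC this held for 48 (10.9% of all genes).
RPS29 again changed the most, from 1699, 1774, 1527 and 1888 to 2041, 2211, 2122 and 2082, by 0.30 (SE 0.06, limma adjusted p = 3.66e-04), without overlap. RPS12 rose from 1165, 1199, 1177 and 1246 to 1453, 1469, 1544 and 1409, by 0.29 (SE 0.03, adjusted p = 4.81e-07), and its groups did not overlap. RPL13A, also part of the GAIT complex that silences inflammatory mRNAs, rose by 0.28 (SE 0.04) and RPL14 by 0.27 (SE 0.03).

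The 48 members that rose at high MYC all rose at medium MYC as well, 22 were called only at medium MYC, and 8 at neither level. The 8 were RPL13, RPL28, RPL35, RPL36, RPL39L, RPLP2, RPS15 and RPS28. Each had an SD of log2 values within groups of at least 0.0779 (RPLP2), where the median member had 0.0428. At high MYC 16 of the 19 members with the smallest SD were called higher, and 2 of the 19 with the largest, RPL39L left out. A missing call therefore does not show a smaller response. RPL39L changed by −0.33 (SE 0.19) and −0.32 (SE 0.19), its adjusted p being 0.213 and 0.231. At high MYC its IMP1088 libraries all lay narrowly below its DMSO libraries, the only member with such a separation, and at medium MYC they overlapped. RPL35 was looked at after its values were seen. It had 10340, 9931, 9100 and 8877 with DMSO and 9142, 9235, 9807 and 9822 with IMP1088 at high MYC, so the groups overlapped fully, and its log2 change was −0.01 (SE 0.05) there and 0.02 (SE 0.05) at medium MYC. With the GC correction RPL35 passed the test at medium MYC, at 0.08 (adjusted p = 0.0492), and not when the replicate block was added (adjusted p = 0.0527). Leaving out RPL39L, the responses of 77 members at the 2 MYC levels, which share no library, were related by Pearson r = 0.713 and Spearman rho = 0.670 across genes.

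The size of the response was compared between the MYC levels by the interaction of MYC level and treatment, taken as high minus medium. In 7 members the response was larger at medium MYC, and in none was it larger at high MYC (limma, adjusted p below 0.05). For the latter the count was also 0 at an unadjusted p below 0.05 and by edgeR and DESeq2. By this test the difference was called below 0 in 5.33% of all genes and above 0 in 3.31%, whichever way they responded. It was called below 0 in 13.3% of genes averaging at least 1000. The 7 members were 8.97% of those tested, a share below that one. The median difference of the members was −0.09 log2 and that of all genes −0.02. It was −0.09 for the large and −0.09 for the small subunit. The log2 change at medium MYC exceeded that at high MYC in 78 of 78 members, by almost nothing in RPSA (0.12 at both levels), and in 7393 of all 13765 genes. The count of 7 depended on the processing: it was 1 without the mean trend, 4 without the filter or without replicate 2 of high MYC with DMSO, 14 with equal library totals or without replicate 3 of medium MYC with DMSO, and 34 with quantile normalization.
RPL36A had the largest difference, −0.16 (SE 0.04, adjusted p = 0.0236). At high MYC it had 3937, 3941, 3634 and 3736 with DMSO and 3692, 3777, 3871 and 3864 with IMP1088, which overlap, and at medium MYC 2158, 2172, 2243 and 2093 against 2435, 2396, 2367 and 2463, which do not. Its log2 change was −0.00 (SE 0.03) at high and 0.16 (SE 0.03) at medium MYC. RPL14 rose at both levels, by 0.11 at high and 0.27 at medium MYC, a difference of −0.16 (SE 0.04, adjusted p = 0.0102).
RPL7 differed by −0.15 (SE 0.04, adjusted p = 0.0116), with 0.07 at high and 0.22 at medium MYC. RPL9 differed by −0.14 (SE 0.04), with 0.08 and 0.23. RPL4, which lines the exit tunnel, differed by −0.13 (SE 0.03), with 0.11 and 0.24. The calls of RPL36A, RPL7, RPL9 and RPL4 were each lost in at least 1 other setting, and that of RPL9 also when reads of its pseudogenes were added. RPL21, also called, fell outside the rule for naming and was added with its value known, at −0.14 (SE 0.04, adjusted p = 0.0428). Its call was lost in 18 other settings, among them edgeR, the replicate block, added pseudogene reads and most fits without 1 library.

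**Figure D3:**
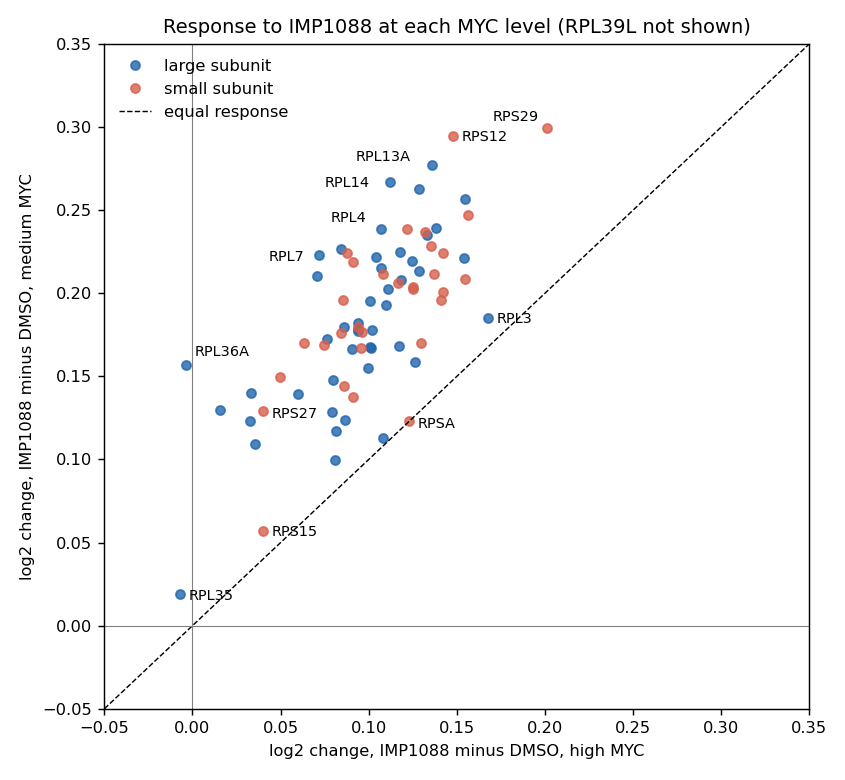
Log2 change with IMP1088 at high MYC (x axis) and at medium MYC (y axis) for 77 tested members, coloured by subunit, with equal responses on the dashed line. No point lies below the line, RPSA lies on it at 0.12, and RPS29 is highest at 0.20 and 0.30.

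The paralogs and other ribosomal proteins were mixed in their response to IMP1088. RPS27L rose by 0.32 (SE 0.05, limma adjusted p = 4.89e-05) at high MYC and by 0.40 (SE 0.05) at medium MYC. Its values were 569, 538, 555 and 523 against 694, 688, 695 and 654 at high MYC, and 692, 734, 649 and 771 against 1009, 918, 918 and 917 at medium MYC. The groups did not overlap at either level. RPS27 itself changed by 0.04 (SE 0.03, adjusted p = 0.409) at high MYC and rose by 0.13 (SE 0.03) at medium MYC. RPL22L1 rose by 0.18 (SE 0.04) and 0.24 (SE 0.04), and RPL22 by 0.12 (SE 0.03) and 0.22 (SE 0.03). RPL36AL fell at high MYC by 0.14 (SE 0.05, adjusted p = 0.0363), a call lost in 10 other settings. RPL39 rose by 0.12 (SE 0.03) and 0.21 (SE 0.03).

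Genes that work with the ribosomal proteins were counted from lists named in the methods. Of 15 elongation factors and other genes listed as TOP mRNAs, all 15 fell at medium against high MYC in DMSO, with a median of −0.77, where 37.3% of all genes and 48.1% of genes averaging at least 1000 were called lower. NPM1, a nucleolar histone chaperone, fell by 1.52 (SE 0.03), EIF4B, which assists the helicase of initiation, by 1.33 (SE 0.02), and EEF1B2, an exchange factor of elongation, by 1.55 (SE 0.03). With IMP1088, 13 of the 15 rose at high MYC and 15 at medium MYC, with medians of 0.12 and 0.19 beside 0.10 and 0.18 for the ribosomal protein genes. Over all genes 10.5% and 11.7% were called higher, and 14.8% and 20.4% of genes averaging at least 1000. EEF1A1, the elongation factor that brings aminoacyl-tRNA, rose by 0.30 (SE 0.03) at medium MYC, more than at high MYC by the interaction (−0.17, SE 0.04, limma adjusted p = 0.00633).
Of 9 dedicated chaperones of ribosomal proteins, 7 fell at medium MYC in DMSO, with a median of −0.59, against 37.3% of all genes called lower. PDCD2, the chaperone of RPS2, fell by 0.81 (SE 0.05), BCCIP, which serves RPL23, by 0.76 (SE 0.05), and PDCD2L by 1.71 (SE 0.13). With IMP1088 only PDCD2 was called among the 9, at high MYC, where it rose by 0.18 (SE 0.05, adjusted p = 0.0189) and lost the call in 3 of the fits without 1 library. None of the 9 was called at medium MYC by limma, edgeR or DESeq2, and 0 had an unadjusted limma p below 0.05. Of all tested genes, limma called 10.5% higher and 16.3% lower at high MYC, and 11.7% and 14.6% at medium MYC.
Of 12 genes of TOP and S6 regulation, 8 fell and 3 rose at medium MYC in DMSO, against 37.3% of all genes called lower and 38.9% higher. The 3 that rose were EIF4EBP2, a paralog of EIF4EBP1, by 0.38 (SE 0.04), MTOR, the kinase itself, by 0.17 (SE 0.03), and TSC2, which restrains mTOR complex 1, by 0.13 (SE 0.06, limma adjusted p = 0.0396). They were named after their values were seen, the change of MTOR was −0.02 with the GC correction (adjusted p = 0.524), and the call of TSC2 was lost in 12 other settings. LARP1, which binds TOP starts, fell by 1.11 (SE 0.02), LARP1B by 1.58 (SE 0.07), and EIF4EBP1, the mTOR-controlled inhibitor of eIF4E, fell by 2.41 (SE 0.09). With IMP1088 the only calls among the 12 at high MYC were 2 lower, where 10.5% of all genes were called higher and 16.3% lower. These were EIF4EBP2, at −0.21 (SE 0.04), and MTOR, at −0.11 (SE 0.03). At medium MYC 3 of the 12 were called higher and 1, EIF4EBP2, lower, at −0.13 (SE 0.04), against 11.7% and 14.6% of all genes. The response of EIF4EBP1 to IMP1088 differed between the MYC levels, and it passed the test at medium MYC. It had 513, 468, 411 and 450 with DMSO and 409, 425, 368 and 369 with IMP1088 at high MYC, which overlap, and 98.1, 85.6, 90.1 and 71.4 against 169, 140, 157 and 135 at medium MYC, which do not. Its log2 change was −0.23 (SE 0.09, adjusted p = 0.0827) at high MYC, where it passed the test in 5 other settings, edgeR and DESeq2 among them, and 0.80 (SE 0.09) at medium MYC, and the difference was −1.02 (SE 0.13, adjusted p = 2.28e-05).

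Members differed in how well replicates matched. The SD of log2 values within groups ranged from 0.0192 for RPL5 to 0.124 for RPL28, leaving out RPL39L at 0.255. The median was 0.0428 for the members and 0.0524 for all genes averaging at least 1000. Across 77 members the SD was related to the GC content of the annotated transcript by Pearson r = 0.501 and Spearman rho = 0.461, all points sharing the same libraries. That transcript is 4796 bases long for RPL28 and 4498 for RPL13, and whether it is the one expressed here was not tested. In high MYC with DMSO, replicates 1 and 2 both lay above replicates 3 and 4 in 44 of 78 members, and in medium MYC with DMSO replicate 1 was the lowest in 57. RPL35 is an example, with medium MYC values of 5780, 6014, 7026 and 6114 in DMSO and 6251, 6247, 6427 and 6272 with IMP1088. Such replicate orders were not counted over all genes, so whether they are particular to the members was not tested.

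**Figure D4:**
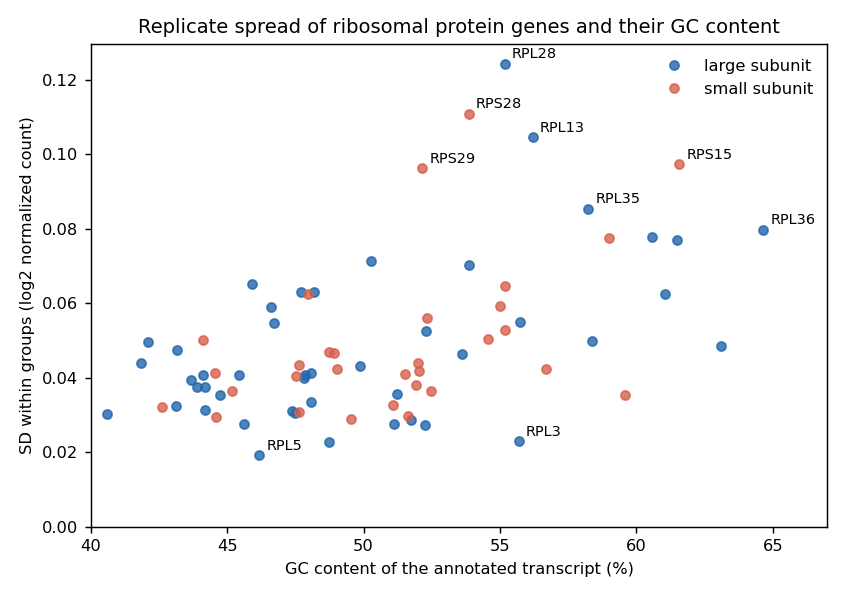
SD of log2 normalized counts within groups (y axis) against the GC content of the annotated transcript (x axis, %) for 77 tested members, coloured by subunit. RPL28 had the largest SD at 0.124 and RPL5 the smallest at 0.0192.

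Over the 16 libraries RPLP0 followed the median member most closely and RPL4 was among the 3 closest, with Pearson r of 0.999 each. RPL39L at −0.943, RPS27 at 0.816 and RPS19 at 0.855 followed it least. The likeness is a description over libraries that differ in MYC level and treatment.

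Reads of ribosomal protein genes can be shared with copies and neighbours. Of the 80 members, 76 have named pseudogenes (1132 in all), and in 7 members the pseudogenes held more than 4% of the combined reads, the largest shares being 42.9% for RPL23A and 33.5% for RPL9. With pseudogene reads added, 77 members fell in DMSO at medium MYC, and 47 and 70 rose with IMP1088. Exons of another gene overlap 50 members, 29 of them on the other strand, and strand use in the counting is not given in the sources used here. Counts for RPL23A and RPL9 are therefore uncertain.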

How the data were processed

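RNA was sequenced from 16 libraries. The authors deposited a table of normalized counts, treated here as a non-negative signal per gene; the submitters' processing notes name STAR 2.5.2a, RSEM 1.2.31, DESeq2 1.16.1 and GRCh38. Values were whole multiples of 1 step per library (100% of values within 0.001 of a whole number), so reads were recovered; in a pair of libraries the step was near 1. Genes with a mean of at least 10 were tested with limma 3.58.1 (R 4.3.3) on log2(value + 1), with a mean trend, over all 16 libraries with 4 group means, 13765 genes and Benjamini-Hochberg adjustment at 0.05. A log2 change on this scale understates that of low genes. Symbols came from a separate list of gene names, and gene types, positions and transcripts from GENCODE 29. GC content and lengths are those of the longest principal transcript. Recovered reads were also tested with edgeR 4.0.16 and DESeq2 1.42.0, which called 3704 and 3165 genes with IMP1088 at high MYC. Scripts were tested on simulated data.

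Named members were up to 4 called members with the largest change in each direction and comparison, a fixed set of members, the 3 most and 3 least like the median member, paralogs, and up to 3 genes per list by smallest p. The lists were elongation and other TOP genes (15), chaperones of ribosomal proteins (9) and TOP and S6 regulation (12). A few genes the rule names are not reported here. Members and lists were chosen with earlier results of these data known. Adding pseudogene reads and the background of genes averaging at least 1000 were chosen after seeing the data.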

Additional observations from a re-analysis of the deposited data

Results flagged for a closer look

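One library stood apart from the other 3 of its group in 16 of 256 groups of values examined, and chance alone gives about 1 in 20. The highest library was apart for RPL10 (11337 normalized counts) and RPL39 (5419) at high MYC with DMSO, and for RPL26 (5916), RPL35 (6427) and RPSA (9487) at medium MYC with IMP1088. RPL3L was apart at 1.51 and 4.16 at high MYC with DMSO and with IMP1088, both near 0 reads. Among other genes, BCCIP (1120), LARP1B (439) and NPM1 (19037) were apart at high MYC with DMSO and NPM1 (6479) at medium MYC with DMSO. PDCD2L (137) was apart at the low end at high MYC with IMP1088 and RPL26L1 (172) at medium MYC with IMP1088. RPS27L was apart at the low end (654) at high MYC with IMP1088 and at the high end (1009) at medium MYC with IMP1088. The share of reads in ribosomal protein genes was apart at 7.98% in replicate 3 of high MYC with IMP1088.

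The response to IMP1088 differed between the MYC levels, by limma's interaction test (high minus medium, adjusted p below 0.05), in 13 named genes. The difference was −0.16 for RPL14 and RPL36A, −0.15 for RPL7, −0.14 for RPL9 and RPL21, and −0.13 for RPL4. Outside the ribosomal proteins it was −0.17 for EEF1A1, −0.15 for EEF2, −0.16 for MTOR, −0.38 for LARP1B, −1.02 for EIF4EBP1, −0.27 for CD22 and −0.17 for PAX5. The call of RPL21 was lost in 18 other settings, that of EEF2 in 10, that of RPL36A in 7, those of MTOR and RPL9 in 4 each, that of RPL4 in 2, and those of RPL7 and EEF1A1 in 1 each.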

How the results depend on the processing

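The 77 members lower at medium MYC in DMSO stayed at 77 under every alternative run, and in IMP1088 the count ran from 75 to 77; members higher with IMP1088 ran from 33 to 63 at high MYC (33 to 58 without 1 library) and from 69 to 76 at medium MYC, with none lower. The 7 members with a larger response at medium MYC became 14 with equal library totals, 4 without the filter, 1 without the mean trend, 34 with quantile normalization and 4 to 14 without 1 library. The 1 member higher at medium MYC in DMSO became 0 with a filter at a mean of 100, which leaves out RPL39L, and 2 without a filter; in IMP1088 it became 0 with that filter and 2 with quantile normalization. The median change between MYC levels in DMSO was −0.94 with the GC correction, with or without the replicate block, and −0.69 with quantile normalization; in IMP1088 it was −0.88 and −0.55. The GC correction moved the median of all genes to −0.09 and −0.11. The median response at medium MYC was 0.22 with quantile normalization. Shares without the 10 genes with most reads were 8.04, 8.78, 4.77 and 5.53%. RPS19 in the IMP1088 libraries turned to 0.10 with quantile normalization. RPL36A at high MYC, at −0.00, turned to 0.00098 (DESeq2), 0.0033 (edgeR), 0.0143 (equal totals), 0.0344 (quantile), 0.0028 (size factors without members), and ran from −0.0263 to 0.0126 without 1 library. RPL35 at high MYC turned to 0.0737 with the GC correction, with or without the block, and to 0.0108 with equal totals; without 1 library it ran from −0.042 to 0.0314, and from −0.016 to 0.0779 at medium MYC. Between MYC levels in DMSO, MTOR turned to −0.018 with the GC correction, with or without the block; LYZ, not called, turned to −0.0614 with it and −0.148 with quantile normalization and ran from −0.0115 to 0.166 without 1 library. The causes were not tested.

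The replicate number as a block gave 47 members higher at high MYC, 70 at medium MYC and 6 with a larger response at medium MYC. The labels do not say whether same-numbered libraries share more than the number, and the residual correlations of such libraries ran from −0.154 to 0.239. The depth of 16 to 77 reads limits RPL39L, and responses of about 0.1 log2 lie near the SE of members with a large spread.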
